A study of Drosophila melanogaster with 4 samples.

Results

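Chromosome 4 and the mapped heterochromatin of Drosophila melanogaster carried 276 of the 5566 regions that ChIP-seq listed as enriched for elongating RNA polymerase II in Kc167 cells, which is 4.96% of the list. The regions, called clusters here, were taken by position alone, as every enriched region of the authors' combined set that lies on chromosome 4 or on 1 of 6 scaffolds of mapped heterochromatin. Chromosome 4 held 106 of them, 3LHet 85, 2RHet 50, 3RHet 14, YHet 8, 2LHet 7 and XHet 6. The arms 2L, 3L and 3R, pooled, served for comparison and held 3097 clusters.

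Kc167 is a cell line established from late embryos, labelled female and with the genotype se/e. Its formaldehyde-fixed, sonicated chromatin, from pooled culture flasks, was precipitated with ab5095, a rabbit polyclonal antibody to the polymerase's C-terminal repeat phosphorylated at serine 2. All 4 samples share that line, genotype and protocol. They are 2 ChIP libraries, numbered as replicates, and 2 of input DNA; the latter were not analysed here. The authors deposited 1 set of regions for each ChIP library and 1 for the series, the combined set. Read depth is unknown. The labels do not say that the replicates came from separate cultures, so their spread may be technical. With 2 replicates the smallest two-sided p of an exact sign-flip test is 0.5, so differences between sequences are set beside the spread between replicates and were not tested.

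Serine 2 of the C-terminal repeat is phosphorylated as the polymerase leaves the promoter-proximal region, and the mark therefore follows transcribed gene bodies. Chromosome 4, the dot chromosome, is packed with the heterochromatin protein HP1a and with methylated histone H3 lysine 9, yet most of its genes are transcribed, and the Pof protein binds along them. The heterochromatic scaffolds come from repeat-rich sequence around the centromeres and from the Y chromosome. Genes are sparse there, and some of them, such as light and rolled, are known to need a heterochromatic setting for normal expression. Release 5 of the fly genome, on which all positions are given, lists each scaffold as a sequence of its own. The gene table at hand describes release 6, so clusters are named by position and not by gene, and no sequence is shown.

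YHet is assembled from the Y chromosome, and Kc167 is labelled female. Clusters were listed on YHet all the same, with 8 in the combined set, 2 in replicate 1 and 4 in replicate 2. Whether reads from similar sequence elsewhere were placed there was not tested.

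Chromosome 4, a sequence of 1.35 Mb, was more densely set with clusters than the arms and every scaffold. The combined set listed 78.4 clusters per Mb on it, replicate 1 listed 60.7 and replicate 2 listed 62.1. On 2L, 3L and 3R the density was 41.0 in the combined set, 38.9 in replicate 1 and 38.7 in replicate 2. Chromosome 4 thus had 1.91 times the density of these arms in the combined set, 1.56 times in replicate 1 and 1.61 times in replicate 2. Cut into 55 consecutive windows of the length of chromosome 4, the 3 arms held at most 82 clusters in a window of the combined set, against 106 on chromosome 4. In replicate 1 the fullest window had 81 clusters against 82, and in replicate 2 it had 79 against 84. None of these 55 windows therefore reached chromosome 4 in any of the 3 sets, although the margin in replicate 1 was a single cluster.

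The share of sequence in clusters stood out less than their number. Clusters covered 20.6% of chromosome 4 in replicate 1 and 22.1% in replicate 2; the combined set covered 27.0%. The pooled arms stood at 17.1%, 17.6% and 19.4%, respectively. Chromosome 4 exceeded the arms by 3.99 ± 0.75 percentage points (SD, n = 2), with 3.46 in replicate 1 and 4.52 in replicate 2, and by 7.63 in the combined set. Among the same 55 arm windows, 4 had a higher share than chromosome 4 in the combined set, 14 in replicate 1 and 11 in replicate 2. The highest window of the arms reached 33.5%, 30.8% and 31.1% in these sets. Chromosome 4 therefore lay inside the range of these 55 windows in covered share and outside it in number of clusters. The windows were placed in 1 way only, from the start of each arm.

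**Figure D1:**
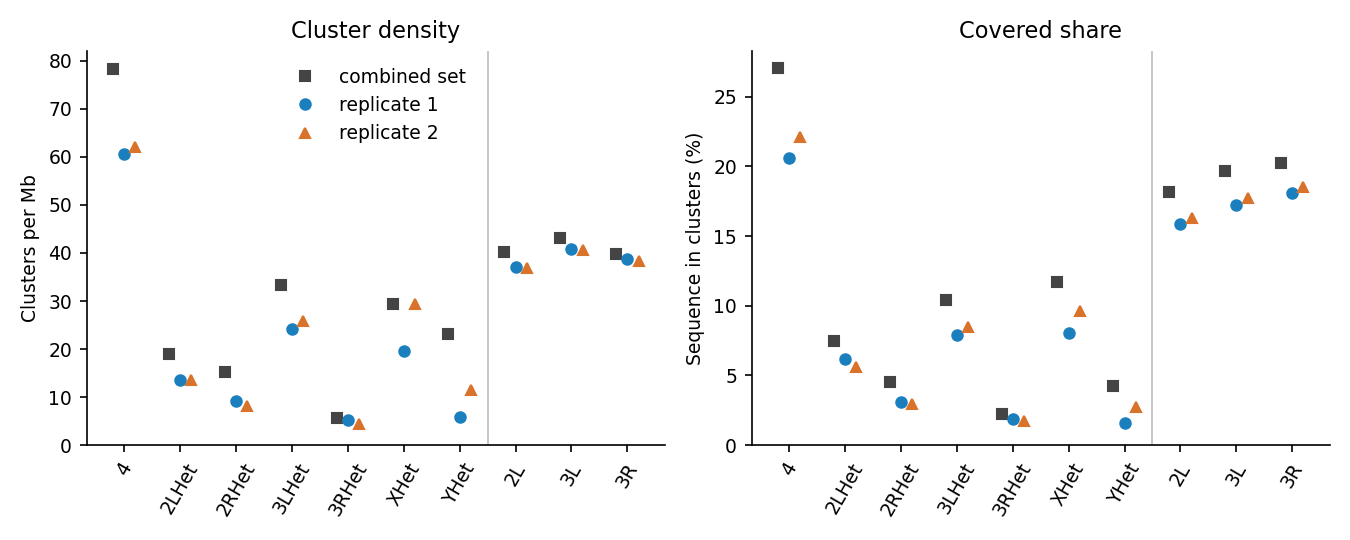
Cluster density (left, clusters per Mb) and share of sequence in clusters (right, percent) on chromosome 4, on 6 heterochromatic scaffolds and on the arms 2L, 3L and 3R (right of the grey line), with squares for the combined set, circles for replicate 1 and triangles for replicate 2. Chromosome 4 lies above the arms in each set (60.7 clusters per Mb in replicate 1 against 38.9 on the pooled arms), and all scaffolds lie below them.

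The clusters of chromosome 4 were short. Their median width was 2344 bp in replicate 1 and 2727.5 bp in replicate 2, against 2927 and 2996.5 bp on the pooled arms. The difference was -426 ± 222 bp (SD, n = 2), and in the combined set it was -424 bp, from medians of 2530 and 2954 bp. The upper quartile differed more: 3984 and 4001.25 bp on chromosome 4 against 5145.75 and 5400 bp on the arms, in replicates 1 and 2. Clusters of 10 kb or more were 5 of 106 on chromosome 4 in the combined set (4.72%), against 10.7% on the pooled arms and 9.50% of all clusters. Replicates 1 and 2 listed 4 each, 4.88% and 4.76% of their chromosome 4 clusters, against 8.41% and 9.32% on the arms. The widest combined cluster of chromosome 4 measured 13454 bp.

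Scores were lower on chromosome 4 than on the arms. The score is the authors' own value, on an unstated scale, and it is compared only within a set or between the 2 replicate sets. Where a combined score stands beside replicate scores, it is listed and not compared. Its medians were 0.91 and 0.95 in replicates 1 and 2, where the pooled arms had 1.10 and 1.12, a difference of -0.18 ± 0.01 (SD, n = 2). Of the arm windows of equal length, 49 of 55 had a higher median score than chromosome 4 in the combined set. The highest 10% of all scores included 6 of the 106 clusters, 5.66%, where the share over all clusters is 10.0% by construction. Only 3 of those 6 overlapped the replicates. Wider clusters of chromosome 4 tended to score higher. Spearman's rho between width and score, a description across clusters of a shared library, was 0.72 over the 82 clusters of replicate 1 and 0.70 over the 84 of replicate 2, against 0.63 and 0.64 on the arms. In the combined set the order was the other way, 0.55 on chromosome 4 and 0.61 on the arms.

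Spacing set chromosome 4 apart mainly by its lack of long gaps. The upper quartile of the gaps between consecutive clusters was 14636 bp in replicate 1 and 13548.5 bp in replicate 2, against 23309 and 23355 bp on the pooled arms. The median gap differed little in the replicates, 6331 and 5604 bp against 6471 and 6484 bp. The difference of the medians was -510 ± 523 bp (SD, n = 2), so it was within the spread between replicates. In the combined set the median gap was 2838 bp on chromosome 4 and 5760 bp on the arms, a difference of -2922 bp. Gaps under 1 kb changed sides between the sets. They made up 25.7% of the gaps on chromosome 4 and 19.3% on the arms in the combined set, but 14.8% and 14.5% against 18.0% and 17.0% in replicates 1 and 2. Clusters with no neighbour within 10 kb were 10 of 82 in replicate 1 (12.2%) and 7 of 84 in replicate 2 (8.33%), against 19.3% and 19.6% on the arms.

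**Figure D2:**
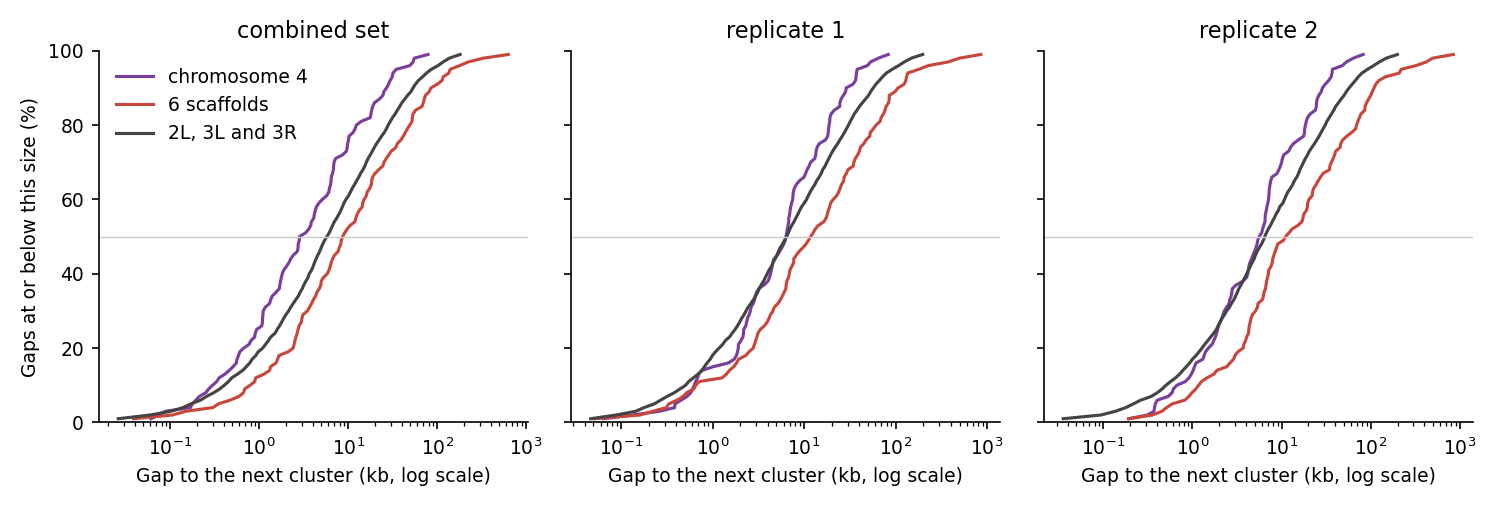
Cumulative distribution of the gaps between consecutive clusters (x axis, kb, log scale; y axis, percent of gaps at or below that size, drawn through the percentiles) on chromosome 4, the 6 scaffolds and the pooled arms, with 1 panel for each set. In replicate 1 the curve of chromosome 4 meets that of the arms near the median (6331 against 6471 bp) and lies to its left above it. In replicate 2 (5604 against 6484 bp) and in the combined panel the curve of chromosome 4 lies to the left at the median as well.

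Along chromosome 4 the clusters were spread over the whole length. No gap reached 100 kb, and none of the 13 full windows of 100 kb was empty. The centromere lies toward low coordinates. On the centromere side, up to 675928, clusters covered 20.6% in replicate 1 and 21.6% in replicate 2, and on the telomere side 20.6% and 22.6%, so the sides were nearly alike. Single windows ranged from 5.46% to 33.6% in replicate 1 and from 7.44% to 33.5% in replicate 2. The sixth window, from 500001 to 600000, was the fullest with 33.6% in replicate 1 and 33.5% in replicate 2. The twelfth, from 1100001 to 1200000, was the emptiest with 5.46% and 7.44%. Over the 13 windows the replicates had a Spearman correlation of 0.90 and differed by 2.06 percentage points on average.

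**Figure D3:**
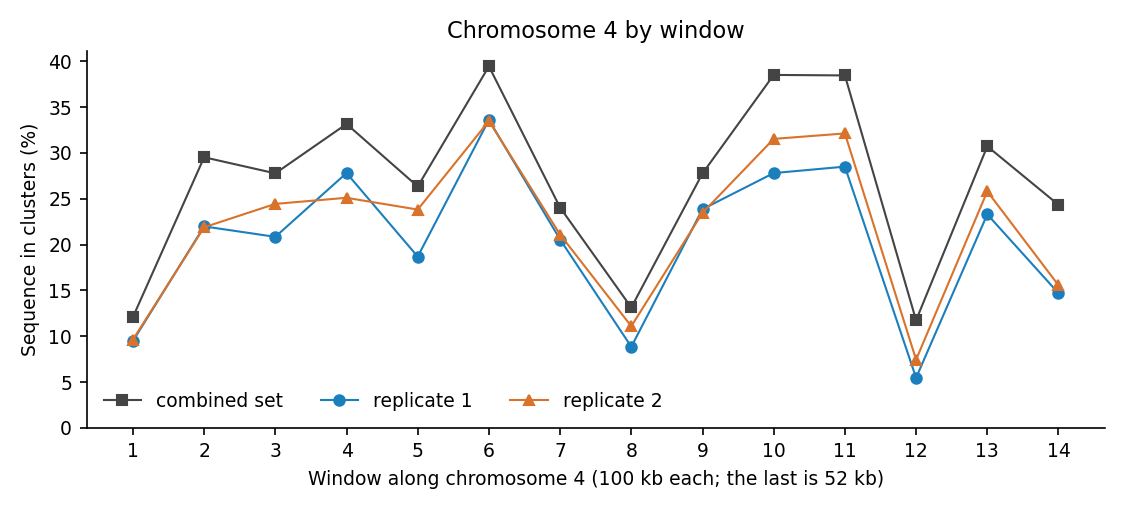
Share of sequence in clusters (percent) in consecutive 100 kb windows along chromosome 4, numbered from the centromere side; the last window is shorter. Lines join the values of 1 set (squares the combined set, circles replicate 1, triangles replicate 2). All sets dip at windows 1, 8 and 12 and are highest at window 6, with 33.6% in replicate 1 and 33.5% in replicate 2.

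The 5 longest gaps of the combined set marked the emptiest stretches. The longest ran from 234984 to 315273 (80.3 kb), and the next from 717729 to 797712 (79.98 kb). No cluster of either replicate lay wholly inside them; a replicate 2 cluster at the edge reached 27 bp into the first and another 10 bp into the second. The other three ran from 5991 to 61308 (55.3 kb), from 1146793 to 1200835 (54.0 kb) and from 1082445 to 1134421 (51.98 kb), and neither replicate listed a cluster in them.

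When clusters less than 1 kb apart were joined, the 106 combined clusters of chromosome 4 became 79 domains, while the 82 of replicate 1 became 70 and the 84 of replicate 2 became 72. On the pooled arms 3097 combined clusters became 2501, and the replicates went from 2938 to 2409 and from 2918 to 2422. The widest combined domain ran from 562861 to 581314, 18454 bp, and joined 4 clusters, of which the middle pair, from 569519 to 570519 and from 570713 to 571990, were in neither replicate. The second joined 2 clusters from 668240 to 685742 (17503 bp), and the third joined 4 from 210313 to 227588 (17276 bp). Within the replicate sets the widest joined domain of chromosome 4 was 13521 bp in replicate 1 and 14610 bp in replicate 2.

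The 5 highest-scoring clusters of chromosome 4 among those in both replicates lay far apart. The highest, from 922843 to 936296, scored 2.63 in the combined set and 2.67 in both replicates, and it was the widest cluster as well. The second, from 521183 to 524511, was 3329 bp wide and scored 2.41, with 2.40 in replicate 1 and 2.47 in replicate 2. A cluster from 84423 to 88840, near the centromere side, scored 2.31, with 2.33 and 2.31. The fourth, from 1045291 to 1056966, was 11676 bp wide and scored 2.05, with 2.08 and 2.09. The fifth, from 1290033 to 1292266, scored 1.92, with 2.11 in replicate 1 and 1.73 in replicate 2. Apart from that one, the replicates gave these clusters nearly the same score.

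The 5 widest clusters all scored above the combined median of chromosome 4, 0.78, but not all were among the 5 highest-scoring. The second widest, from 672608 to 685742 (13135 bp), scored 1.24 in the combined set, and the replicates covered 84.5% and 86.6% of it. The fourth, from 147976 to 159503 (11528 bp), scored 1.47 and was covered over 94.0% and 89.0%. The fifth, from 196916 to 207863 (10948 bp), scored 1.42, and replicate 1 covered 76.6% of it against 91.4% in replicate 2, where it fell into 2 clusters.

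Replicates matched less closely on chromosome 4 than on the arms. The shared bases made up 0.83 of the bases in either replicate on chromosome 4 (the Jaccard index) and 0.91 on the pooled arms. Of the replicate 1 clusters of chromosome 4, 77 of 82 overlapped a replicate 2 cluster (93.9%), against 96.4% on the arms and 96.3% of all clusters. In the other direction 75 of 84 did (89.3%), against 94.2% on the arms and 93.9% of all. Across the 73 clusters of chromosome 4 that matched one to one, scores differed by a median of 0.10, and replicate 2 was higher in 49 of them (67.1%), against 53.1% of 2441 matches on the arms. Their starts differed by a median of 77 bp and their ends by 84 bp, against 45 bp for both on the arms. Scores still ranked alike, with a Spearman correlation of 0.94 on chromosome 4 and 0.98 on the arms; clusters of 2 libraries are not independent replicates.

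**Figure D4:**
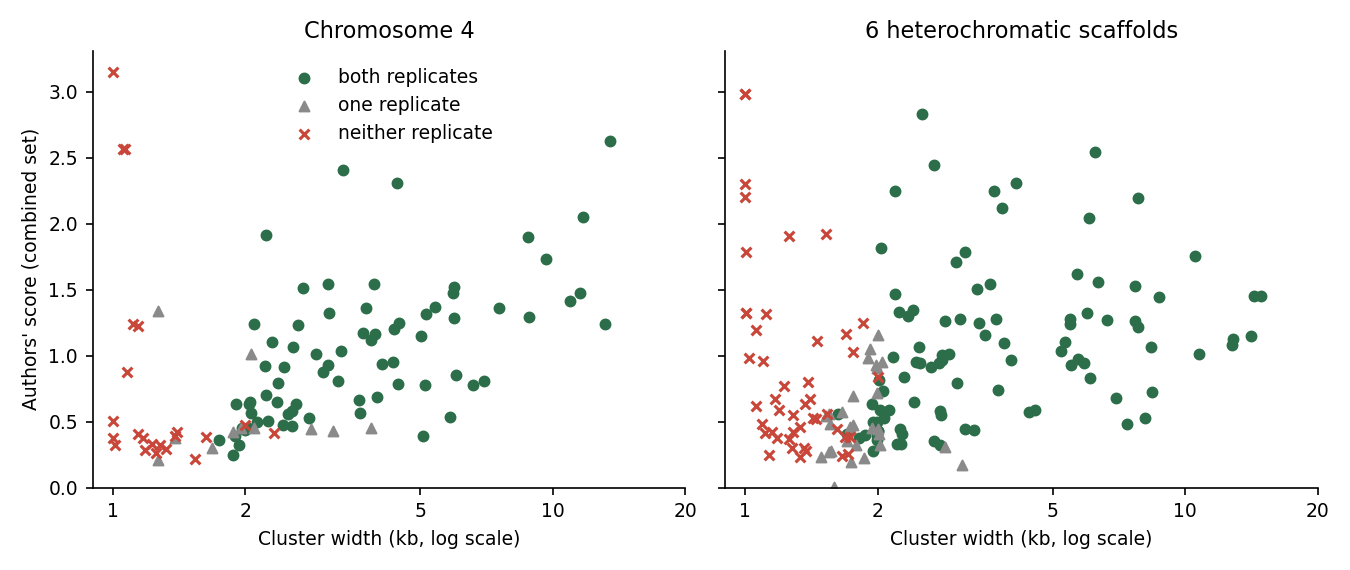
Width (x axis, kb, log scale) and authors' score (y axis, combined set) of the clusters on chromosome 4 (left) and on the 6 scaffolds (right). Circles overlap clusters of both replicates, triangles of 1 replicate and crosses of neither. Most crosses lie at widths under 2 kb and low scores, and a few of about 1 kb reach the highest scores, 3.15 on chromosome 4 and 2.98 on YHet.

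The combined set added more to chromosome 4 than to the arms, and much of what it added was in neither replicate. Its cluster number was 1.28 times the mean of the replicates on chromosome 4, 1.06 times on the pooled arms and 1.45 times on the 6 scaffolds. Of the 106 clusters, 73 overlapped a cluster of both replicates (68.9%, 95% exact interval 59.1 to 77.5), against 82.0% on the arms and 80.8% of all clusters. A further 3 overlapped replicate 1 alone and 8 replicate 2 alone. The other 22 overlapped neither (20.8%, interval 13.5 to 29.7), against 10.9% on the arms and 11.7% of all clusters. The exact intervals are Clopper-Pearson intervals that treat clusters as independent. Most arm windows of the length of chromosome 4 had a smaller share in neither replicate, but not all. Window 11 of 2L had 8 of 30 clusters in neither and 19 in both. Window 16 of 2L had 19 of 73 clusters in neither and 47 in both. Window 17 of 3L had 14 of 55 in neither and 33 in both. By sequence, 71.7% of the combined bases on chromosome 4 lay in both replicates and 14.2% in neither, against 85.0% and 6.62% on the arms.

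Clusters of chromosome 4 in both replicates were wider and scored higher than the rest. Their median width was 3305 bp and their median combined score 0.93, against 3637.5 bp and 1.15 for the same class on the arms. For the 22 in neither replicate these medians were 1179.5 bp and 0.40. No replicate 1 cluster was narrower than 1301 bp and no replicate 2 cluster narrower than 1303 bp, whereas the combined set went down to 1001 bp. Of the 22, 15 lay under 1301 bp, as did 192 of 338 on the arms. Among clusters of at least 1500 bp, 85.9% of those on chromosome 4 overlapped both replicates, against 91.0% on the arms.

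Both ends of chromosome 4 were marked by clusters that neither replicate listed. The first cluster of the combined set, from 4882 to 5990, scored 1.24, and the last, from 1347359 to 1348425, scored 2.57. Another at the telomere side, from 1334388 to 1335440, had the same score of 2.57. The highest score of chromosome 4 also belonged to such a cluster, from 1317993 to 1318993, 1001 bp wide with a score of 3.15. Those 3 telomere-side clusters were the 3 of the highest 10% of scores that did not overlap a replicate. Clusters of both replicates ran from 61309 to 1324629. Of all 106 clusters, 13 had exactly the score of another combined cluster (12.3%), against 5.13% on the arms and 5.75% of all clusters.

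**Figure D5:**
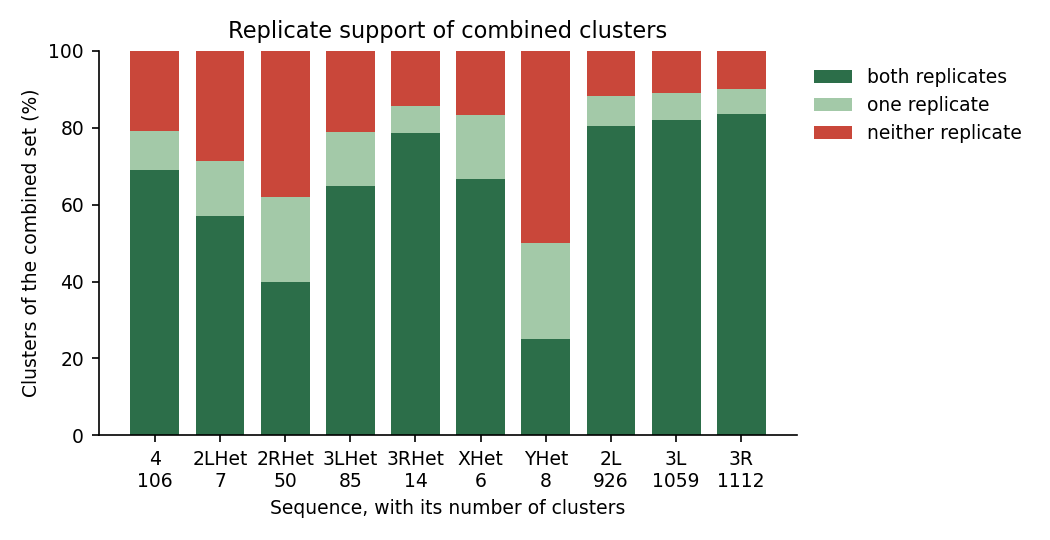
Share of the combined clusters (percent) that overlap both replicates, one replicate or neither by at least 1 bp, for each sequence. The share in both is 68.9% on chromosome 4 and 40.0% on 2RHet, against 82.0% on the pooled arms, and 2 of the 8 clusters of YHet are in both.

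The 6 scaffolds held clusters more sparsely, and each had its own pattern. As a group they carried 170 combined clusters over 9.28 Mb, and replicates 1 and 2 listed 116 and 119. Their covered share was 4.26% and 4.40% in the replicates, and its difference from the arms was -13.0 ± 0.23 percentage points (SD, n = 2), with -13.6 in the combined set. Median widths of 2375 and 2363 bp in the replicates put the scaffolds at a difference of -593 ± 57.6 bp from the arms. The median gap was 11836.5 bp in replicate 1 and 11068 bp in replicate 2, and the difference from the arms was 4975 ± 553 bp (SD, n = 2). In the replicates XHet and YHet had shorter median gaps, but these rest on few gaps. Replicates 1 and 2 had 3 and 5 on XHet, and 1 and 3 on YHet. Sequence before the first and after the last cluster does not count as a gap. How much of each scaffold is open to unique alignment is not known here, and a low share does not show that the polymerase was absent. Of the 170 combined clusters, 96 overlapped both replicates (56.5%, interval 48.7 to 64.0) and 46 neither (27.1%, interval 20.5 to 34.4), against 80.8% and 11.7% of all clusters.

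3LHet held the most clusters of the scaffolds. It had 33.3 clusters per Mb in the combined set, 24.3 in replicate 1 and 25.8 in replicate 2, and the replicates covered 7.86% and 8.51% of it. Combined clusters lay all along its 2.56 Mb, but unevenly, and those in both replicates ran from 409624 to 2516531. In the combined set, a stretch of 1002 kb, from 1516937 to 2518614, held 47 of its 85 clusters without a gap of 100 kb. Of these 47, 32 overlapped both replicates and 8 neither. Replicate 1 listed no cluster between 1816732 and 1945035, so its run was broken there by a longer gap. The longest gap of the combined set, from 75154 to 409623 (334.5 kb), had no cluster in either replicate. It followed a cluster that was in neither replicate. In replicate 2 the longest gap was 406.3 kb. Replicate 1 listed no cluster before 409661, and its longest gap was 137.7 kb. The highest-scoring cluster in both replicates, from 2396647 to 2402867, scored 2.54, with 2.56 and 2.61 in the replicates. The widest, from 589627 to 604493 (14867 bp), was the widest of chromosome 4 and all scaffolds and scored 1.45. The replicates shared 0.85 of their bases, against 0.91 on the arms, and 55 of the 85 clusters were in both (64.7%), against 80.8% of all clusters.

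On 2RHet the clusters fell into a few groups. The replicates listed 30 and 27, the combined set 50, over 3.29 Mb. Of the 50, 16 lay between 196067 and 472834, 20 between 2774867 and 2995993, and 7 between 3147474 and 3201520. Between the groups ran the longest combined gap of all the sequences described, from 1337366 to 2582135 (1245 kb), in which neither replicate listed a cluster. A cluster in replicate 2 alone lay at its low edge and a cluster in neither replicate at its high edge. The longest gap of 2RHet was 1649 kb in replicate 1 and 1438 kb in replicate 2. The highest score of chromosome 4 and the scaffolds among clusters of both replicates was here, 2.83 from 2842252 to 2844771, with 2.73 and 2.93 in the replicates. The widest cluster of both replicates, from 2774867 to 2785631 (10765 bp), scored 1.01 and fell into 2 pieces in each. Of the 50 clusters, 20 were in both replicates (40.0%, interval 26.4 to 54.8) and 19 in neither (38.0%), against 80.8% and 11.7% of all clusters. The replicates shared 0.71 of their bases, against 0.91 on the arms.

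3RHet had the lowest cluster density of the scaffolds in each set, 5.16 per Mb in replicate 1, 4.37 in replicate 2 and 5.56 combined. The replicates listed 13 and 11 clusters, the combined set 14, on 2.52 Mb, and 787 kb lay before the first one. A single stretch from 1679859 to 1936766 held 11 of the 14. The highest score, 2.04, belonged to the first cluster, from 786691 to 792723, with 2.10 and 1.99 in the replicates. In the combined set this first cluster was cut off from the main stretch by an empty run from 846767 to 1679858 (833 kb). Only a cluster in neither replicate, from 845764 to 846766, lay between the first cluster and that run. In both replicates the empty run followed the first cluster directly and measured 887 kb. The widest cluster, from 1804777 to 1817621, measured 12845 bp and scored 1.12. Of the 14 clusters, 11 were in both replicates (78.6%, interval 49.2 to 95.3), near the 80.8% of all clusters, and the Jaccard index was 0.82 against 0.91 on the arms.

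2LHet, of 369 kb, had 5 clusters in each replicate and 7 in the combined set. The highest-scoring, from 123165 to 125852, scored 2.44, with 2.26 in replicate 1 and 2.62 in replicate 2. The widest, from 26193 to 38941 (12749 bp), scored 1.08 and fell into 2 clusters in replicate 2. Its 2 neighbours toward low coordinates were in neither replicate. The longest gap ran from 200327 to 285659 (85.3 kb), and beyond it lay a cluster that only replicate 1 shared, with a combined score of 0.0035.

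XHet, the shortest scaffold at 204 kb, carried all of its 6 clusters between 34593 and 86360. Replicate 1 listed 4 clusters and replicate 2 listed 6. Their median gap was 4380 bp in replicate 1 and 4292 bp in replicate 2, shorter than on the arms (-2142 ± 71.4 bp, SD, n = 2). The widest, from 56172 to 64532 (8361 bp), also scored highest with 1.07, and replicate 2 split it in 2. The next, from 74339 to 81301 (6963 bp), scored 0.68. The cluster from 34593 to 36588 scored 0.50, and the one from 67526 to 70833 scored 0.44; both replicates listed these as well. The remaining pair were a cluster from 40224 to 41651, in neither replicate, with a score of 0.53, and one from 84575 to 86360, in replicate 2 alone, with 0.32. All XHet scores were thus low for the set, whose median was 0.98, apart from that of the widest cluster.

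YHet, of 347 kb, had its supported clusters at 1 end. The gap between the 2 clusters of replicate 1 was 6589 bp and the median gap of replicate 2 was 6637 bp, against 6471 and 6484 bp on the arms. The longest gap of the combined set on YHet was far wider, from 155151 to 295780 (140.6 kb). Both replicates listed the cluster from 295781 to 297971, which scored 1.47 in the combined set, 1.72 in replicate 1 and 1.26 in replicate 2. They also listed the one from 304404 to 308231, with 2.12, 2.64 and 1.71. The replicate scores of these 2 clusters differed by a median of 0.69, against 0.07 over one-to-one matches on the arms. Replicate 2 alone listed the clusters from 312671 to 314592 and from 327186 to 329189, with combined scores of 1.05 and 1.16. In neither replicate were the cluster from 319654 to 321413, with 1.02, and 3 clusters of 1001 bp each. Of these, the ones from 28358 to 29358 and from 71858 to 72858 both scored 2.98, and the one from 154150 to 155150 scored 2.20.

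Against the centromere-side ends of the arms, chromosome 4 was again the densest in clusters. The last 1 Mb of 2L held 52 clusters in replicate 1 and 48 in replicate 2, and that of 3L held 30 and 28. The first 1 Mb of 3R held 41 and 42. Their covered shares were 18.6% and 19.6% on 2L, 9.03% and 9.20% on 3L, and 17.8% and 18.3% on 3R. The end of 3L was thus close to 3LHet in covered share, while those of 2L and 3R were near that of the pooled arms. In the combined set 8 clusters of each of the 3 ends overlapped neither replicate, among 58 on 2L, 41 on 3L and 51 on 3R. Their median combined scores were 0.85 on 2L, 0.42 on 3L and 0.69 on 3R. Chromosome 4, at 0.78, thus lay below the end of 2L and above the other ends.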

How the data were processed

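Regions were read from the 3 files the authors deposited, 1 for each ChIP library and 1 for the series. Per the file headers, positions are on FlyBase release 5. The submitters' processing notes name Bowtie 0.12.7, a short-read aligner. The sources used here do not give the caller, its threshold, the use of the input or how the combined set was made. The deposited score is positive for enriched regions and has no stated scale. Enriched regions on chromosome 4 and the 6 scaffolds were kept without a filter. U and Uextra were left out. Width counts both ends; the gap is the bases between consecutive clusters; an overlap is at least 1 bp; the covered share divides by the sequence length in the headers. Replicate values are mean ± SD with n = 2; intervals on shares are 95% exact and cover counting of clusters only. The members and the comparisons were chosen with earlier results of these data known. Regions named in the text are, on chromosome 4, the 5 highest-scoring and the 5 widest clusters in both replicates and the 5 longest gaps; on 4 scaffolds, the highest-scoring and the widest in both replicates and the longest gap; on XHet and YHet, every cluster; and the 5 highest-scoring in neither replicate. The joined domains, the first cluster of chromosome 4 and the neighbours on 2LHet were named after their values were seen. So were the single arm windows and the clusters at the edges of gaps on the scaffolds. Alternatives changed the set, the arms, the joining, the score or width minimum, the length and the overlap. Interval functions were tested on simulated data. Software was matplotlib 3.10.9, pandas 2.3.3, scipy 1.17.1, numpy 2.4.6 and Python 3.11.15.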

Additional observations from a re-analysis of the deposited data

How the results depend on the processing

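Of the 42 alternatives for the 6 results compared, 17 stayed within the spread between replicates or the exact interval, and 25 moved beyond it. No alternative reversed the sign of a difference. The shares of clusters in both replicates cannot be negative, so their sign was fixed in advance. The excess of chromosome 4 over the arms in covered share, 7.63 percentage points in the combined set, was 3.99 as the mean of the replicate sets, 3.46 to 4.52 when either replicate was left out, 6.66 against the 5 large arms, 6.30 for clusters of at least 1500 bp and 1.13 for the better-scoring 50% of the set. For the pooled scaffolds the difference of -13.6 became -13.0 as the mean of the replicates, -13.2 to -12.9 with a replicate left out, -14.6 against the 5 large arms, -10.5 for the better-scoring 50% and -12.6 over the length from the first to the last cluster. The median width of chromosome 4 less that of the arms, -424 bp, was -583 to -269 bp with a replicate left out and -894 bp for the better-scoring 50%. The median gap, -2922 bp, was -510 bp as the mean of the replicates, -880 to -140 bp with a replicate left out, -2373 bp against the 5 large arms and -8004 bp for the better-scoring 50%. The share of chromosome 4 clusters in both replicates, 68.9%, was 31.1% when at least 90% of the cluster had to be covered (56.7% on the arms), 82.9% for the better-scoring 50% (96.3% on the arms), 85.9% at 1500 bp or more, and 71.7% to 76.4% against 1 replicate alone. For the scaffolds 56.5% became 28.2%, 73.8%, 71.6% and 63.5% to 65.9%, respectively. The cause of these shifts was not tested. No paired analysis was possible between ChIP and input because the input libraries, which share replicate numbers with the ChIP libraries, entered no comparison. Differences between sequences were themselves taken within each replicate, and the SD given with them is that of those replicate differences. The files hold no read counts, so precision per cluster is unknown.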

Other observations

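Some clusters carried exactly the same score as another cluster of their set. On the scaffolds this held for 25 of 170 combined clusters (14.7%), against 5.75% of all clusters, and 5 of the 25 were among the 8 of YHet. In the replicate sets the shares on chromosome 4 were 9.76% and 15.5%, against 5.34% and 4.52% on the arms. The 3.15 of the cluster at the telomere side of chromosome 4 was held by 8 combined clusters on 5 sequences, all of them 1001 or 1002 bp wide and all in neither replicate. The 2.98 of YHet was held by 5 clusters and the 2.57 of chromosome 4 by 6, of which 5 each were in neither replicate.

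A single region of depletion lay on the sequences described. The combined set listed it on 3LHet from 2021950 to 2023532, with a score of -0.14, and neither replicate listed a region of either kind there.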
